A study of Mus musculus with 12 samples.

Results

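Chromatin accessibility around 10 macrophage genes was examined in mouse dorsal root ganglia, the clusters of sensory neuron cell bodies beside the spinal cord. The genes were Csf1r, Spi1, Cx3cr1, Trem2, Itgam, Aif1, Tyrobp, Mrc1, Laptm5 and Hcls1, out of 21887 protein-coding genes of the RefSeq table (GRCm38.p6, the same build as mm10). All ATAC-seq summits inside a gene or within 50 kb of either of its ends were taken, which gave 183 summits. Summits of any list lying within 200 bp of the next were joined to a locus, which gave 98 loci out of 78381 in all. The 10 genes were selected on the positions of summits in these same lists, among them a site of Laptm5 in both injured lists only and a site of Hcls1 in wild-type injured ganglia only. The values below are therefore descriptions, and no test was made.

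The study profiled wild-type mice (Silc1+/+) and mice lacking the long noncoding RNA Silc1 (Silc1-/-), each after a sham operation or after injury of the sciatic nerve, with 3 libraries in each of the 4 groups. The injury was a crush with fine forceps at mid-thigh, applied 2 times for 30 seconds, and each library was made from 6 fresh lumbar ganglia. Purchased animals were C57black6 Ola HSD males; the labels give neither the time between crush and dissection nor the age of the mice, and do not say whether a library pools several animals. A single summit list per group was analysed, which leaves the spread between animals unknown. The gene table has no entry named Silc1, and the genotype labels were not checked here. The wild-type lists held 27279 (sham) and 43841 (injured) summits and the Silc1-/- lists 48332 and 35815, from an unknown number of reads. Each summit carries the authors' own score on a −log10 scale, and percentiles of this score below are always within a summit's own list.

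Macrophages are resident immune cells of the ganglion, lying close to the neuron cell bodies, and their number and state are known to change after a nerve is cut or crushed. Their identity depends on PU.1, the protein encoded by Spi1, a transcription factor that binds purine-rich sequences with a GAGGAA or similar core and keeps myeloid enhancers open. They survive through the receptor Csf1r, sense neuronal fractalkine through Cx3cr1, and take up debris through receptors such as Trem2, which signals through the adaptor Tyrobp. Several of these genes are active in other blood cells too: Itgam in neutrophils, Spi1 in B cells and neutrophils, and Laptm5 and Hcls1 in most leukocytes. In tissue of mixed cells, more cells of a type and more open chromatin per cell cannot be told apart.

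RefSeq promoter windows (GRCm38.p6) were matched for 7 of the 10 genes, and the 250 bases before the start are shown for the 3 genes with a wild-type injured summit inside them, Hcls1, Laptm5 and Itgam, and for Mrc1, which had no summit near its start in any list. All 4 lie on the plus strand, Hcls1 at chr16:36934733-36934982, Laptm5 at chr4:130913066-130913315, Itgam at chr7:128062390-128062639 and Mrc1 at chr2:14229164-14229413. Sequences read 5′ to 3′, and capitals mark matches to the searched motifs.
Hcls1: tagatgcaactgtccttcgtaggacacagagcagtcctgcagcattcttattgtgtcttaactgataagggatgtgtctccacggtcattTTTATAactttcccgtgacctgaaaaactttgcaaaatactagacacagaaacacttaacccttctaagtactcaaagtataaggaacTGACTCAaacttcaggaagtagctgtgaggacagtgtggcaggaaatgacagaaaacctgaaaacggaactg
Laptm5: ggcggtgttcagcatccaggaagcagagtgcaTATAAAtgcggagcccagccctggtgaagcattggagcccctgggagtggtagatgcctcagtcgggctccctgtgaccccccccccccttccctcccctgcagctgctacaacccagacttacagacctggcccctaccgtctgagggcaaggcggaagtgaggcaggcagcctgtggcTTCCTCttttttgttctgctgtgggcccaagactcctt
Itgam: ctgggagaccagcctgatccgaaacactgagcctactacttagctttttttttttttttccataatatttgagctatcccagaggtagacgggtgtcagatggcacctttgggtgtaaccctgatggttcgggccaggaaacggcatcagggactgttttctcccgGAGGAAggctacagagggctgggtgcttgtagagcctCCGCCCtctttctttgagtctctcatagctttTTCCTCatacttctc
Mrc1: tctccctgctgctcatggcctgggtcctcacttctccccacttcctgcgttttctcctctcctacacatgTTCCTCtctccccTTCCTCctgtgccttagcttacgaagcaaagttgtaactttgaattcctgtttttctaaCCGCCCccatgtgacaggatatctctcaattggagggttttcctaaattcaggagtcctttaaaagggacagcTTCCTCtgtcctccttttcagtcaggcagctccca
The wild-type injured summit fell on base 210 of the Hcls1 sequence, base 211 of Laptm5 and base 229 of Itgam, that is 41, 40 and 22 bases before the annotated start. In the Hcls1 sequence the capitals are a TATA box on the reverse strand (bases -160 to -155) and an AP-1 match, TGACTCA, at bases -72 to -66. In Laptm5 they are a TATA box at -218 to -213 and a reverse-strand PU.1 core, TTCCTC, at -38 to -33, beside the summit at -40. In Itgam they are PU.1 cores at -84 to -79 and, on the reverse strand, at -15 to -10, with a GC box at -47 to -42. The Mrc1 sequence holds 3 reverse-strand PU.1 cores and a GC box.

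Motifs were searched on both strands as exact letters, and no matches overlapped in these windows. The PU.1 core, searched as GAGGAA, stood in 5 of the 7 windows (Trem2, Itgam, Aif1, Mrc1 and Laptm5), against 23.3% of all 32851 promoter windows of this length. The AP-1 motif, searched as TGANTCA, stood in 2 of 7 (Trem2 and Hcls1), against 6.75%. A RUNX core, written TGTGGT, was found before 1 gene (Cx3cr1), against 14.0% of all windows. The TATA box, searched as TATAAA, stood before Laptm5 and Hcls1, against 12.4%. A GC box, or GGGCGG, stood before Itgam and Mrc1, against 32.7%. These matches describe the letters only. A PU.1 core stood both in windows with a summit and in windows without one.

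Hcls1 encodes a leukocyte adaptor protein that links surface receptors to the actin cytoskeleton. At its start (gene at chromosome 16, 36934983 to 36963214) wild-type injured ganglia had a summit at 36934942 that scored 20.8, at percentile 83.7 of the list. Wild-type sham, Silc1-/- sham and Silc1-/- injured ganglia had none there, and the nearest summit of any other list lay 59833 bp away. Among the 12545 loci held by wild-type injured ganglia alone, it stood at percentile 98.8 by score. The remaining loci around Hcls1 were a summit at 36920683 inside Golgb1 (score 1.99) and one at 36985989 inside Fbxo40 (7.44), both in wild-type injured only, and a site in all 4 lists at 37011685, 56 bp from Polq, which encodes a DNA polymerase. At that shared site the wild-type lists scored 9.47 (sham) and 24.6 (injured) and the Silc1-/- lists 13.3 and 9.74. All 4 lists thus held a site in this window, at another gene and highest in wild-type injured, while the start of Hcls1 itself was in 1 list. Depth is unknown, and why the other lists lack a summit at the start was not tested.

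Laptm5 encodes a lysosomal membrane protein of blood cells. At its start (annotated at chromosome 4, 130913316; gene 130912890 to 130936148, where the noncoding gene Gm38599 overlaps) injured wild-type ganglia had a summit at 130913276 with a score of 14.1, at percentile 77.0. A second site followed at 130914126 (9.11), which was shared with wild-type sham at 130914203 (5.24, percentile 42.4 of that list). The Silc1-/- lists had no summit closer to the start than 6822 bp after sham and 6819 bp after injury. Near the other end of the gene, inside it and 859 bp from that end, lay the site of both injured lists, at 130935289 in wild type (12.5, percentile 74.7) and at 130935325 in Silc1-/- (7.49, percentile 69.2). The nearest sham summit was 12944 bp away, so this site did not depend on the 200 bp used for joining. A weak summit at 130933206 (1.99) was in wild-type injured only.

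The other loci around Laptm5 lay outside the gene. In both Silc1-/- lists only there were sites at 130906494 (6.28 in sham, 2.92 in injured), inside the long noncoding RNA gene Gm38599, at 130874709 (2.37 and 3.44) and at 130960263 (4.56 and 3.09). Both wild-type lists shared a site at 130948283, inside Matn1, a cartilage matrix gene (2.32 in sham, 7.97 in injured), which had a Silc1-/- sham summit 433 bp away at 130948716 (2.42). A site at 130878702 was in all lists but wild-type sham, with scores of 4.98 in wild type and of 6.02 (sham) and 4.68 (injured) in Silc1-/-. Single summits were at 130895910 in wild-type sham (2.56) and at 130902415 in wild-type injured (3.42).

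Itgam encodes the integrin alpha chain CD11b, an adhesion receptor of myeloid cells. Its start (chromosome 7, 128062640) had a wild-type injured summit at 128062618, but a weak one, with a score of 2.57 at percentile 13.3. The nearest summits of the other lists lay 22066 bp (wild-type sham), 21783 bp (Silc1-/- sham) and 22703 bp (Silc1-/- injured) from it. Of the 14 loci around Itgam, 7 were in wild-type injured ganglia alone, the most of any of the 10 genes, with scores of 2.57 to 5.92. Both genotypes had an injured summit inside the gene, at 128092104 in wild type (5.92) and at 128092316 in Silc1-/- (5.08), and the nearest sham summit was 41515 bp from the latter. These are 212 bp apart, just beyond the joining distance, and form a locus of both injured lists only when 500 bp is used. Before the start, 21805 to 23175 bp away, was a cluster of weak summits of every list. The highest score of the window was there, 6.55 in Silc1-/- injured at 128039915. A site of both sham lists only, at 128040413 in Silc1-/- (4.97) and at 128040552 in wild type (4.89), belonged to the same cluster, with an injured summit 402 bp away.

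Spi1 was the gene with the most constant sites. The table used for start sites does not hold Spi1, Tyrobp or Csf1r, and for these either gene end was used. All 4 lists had a summit inside Spi1 (chromosome 2, 91082374 to 91115759), 710 bp from its lower end, with scores of 8.86 (sham) and 8.04 (injured) in wild type and of 5.76 and 3.13 in Silc1-/-. All 4 also had one 527 bp from its upper end, where they scored 5.31, 7.71, 11.4 and 4.70. Between these, 2 sites were shared by wild-type injured and Silc1-/- sham, at 91096734 (9.15 and 3.63) and at 91101622 (7.35 and 6.76), and 1 was in wild-type injured only, at 91089216 (4.27). Neither the wild-type sham nor the Silc1-/- injured list had a summit in the interior of the gene between the end sites. The highest score of the window was at 91054027 inside Psmc3, a proteasome gene, in all lists (19.8 and 41.6 in wild type, 25.2 and 17.5 in Silc1-/-, sham and injured).

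Tyrobp, the signalling adaptor of Trem2 (chromosome 7, 30413782 to 30417582), had a site at its lower end in 3 lists, with scores of 5.57 (sham) and 4.53 (injured) in wild type and of 1.87 in Silc1-/- sham, the last at percentile 5.50 of its list. The nearest Silc1-/- injured summit lay 8555 bp from that site. Wild-type injured ganglia had a further summit 896 bp outside the lower end, at 30412886 (6.33), and 2 more beyond the upper end, at 30420357 near Hcst, another signalling adaptor (3.19), and at 30421642 near Nfkbid, an inhibitor of NF-kappa-B (7.53). These 3 joined no summit of another list, although other lists had summits 881, 1974 and 689 bp away. The highest score in the window was at 30373698, 10926 bp from Lrfn3 and present in all lists, from 19.9 in Silc1-/- injured to 45.6 in wild-type injured.

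The receptor genes Csf1r, Cx3cr1, Trem2 and Mrc1 and the cytoskeletal gene Aif1 had no summit within 1 kb of the start in any list, as was the case for 41.9% of all protein-coding genes. In Csf1r (chromosome 18, 61105572 to 61131139) wild-type injured ganglia had 1 summit inside the gene, 3089 bp from its lower end at 61108661, with a score of 6.27 at percentile 54.5. The nearest summit of another list was 46447 bp away. The strongest site of its window, in all lists at 61177048, was inside Hmgxb3 (15.6 and 21.9 in wild type, 12.1 and 8.57 in Silc1-/-, sham and injured). Aif1, which encodes the actin-binding protein IBA1 (chromosome 17, start at 35176052), had a site 2675 bp before its start in wild-type sham (5.59), wild-type injured (7.49) and Silc1-/- injured (2.48), and none there in Silc1-/- sham. Its strongest neighbour, at 35165000 in Prrc2a, was in all lists. In Trem2 (chromosome 17, start at 48346401) a site 9365 bp before the start was in both Silc1-/- lists (11.2 in sham, 5.80 in injured) and in wild-type injured (10.7), at the identical base 48337036, and was missing from wild-type sham. The Silc1-/- injured list alone had a summit 1326 bp before the start, with a score of 1.38, at percentile 1.19 of the list.

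Cx3cr1 (chromosome 9, start at 120068296) had no summit in its body in any list. A site 5075 bp before the start was in both Silc1-/- lists (3.63 in sham, 1.91 in injured) and in wild-type injured (8.23), and not in wild-type sham. A site of both injured lists only lay at 120027750, 4152 bp from Xirp1, a muscle gene, with scores of 3.18 in wild type and 4.50 in Silc1-/-, and its nearest sham summit was 16474 bp away. The highest-scoring locus of this window, at 120011274 in the noncoding gene Gm33800, was in all lists within 3 bp (29.5 and 35.8 in wild type, 29.7 and 20.3 in Silc1-/-, sham and injured). In Mrc1, the mannose receptor of tissue-resident macrophages (chromosome 2, 14229414 to 14332023), 6 loci lay inside the gene, and the nearest summit to the start was 31690 bp from it. The strongest, at 14312777, was in Silc1-/- sham alone (10.4, percentile 78.0), and a pair of sites was in both sham lists only, at 14261188 (2.92 in wild type and 4.97 in Silc1-/-) and at 14295922 (2.32 and 4.29). The second of these lay 342 bp from a site of wild-type injured and both Silc1-/- lists at 14295580. Mrc1 was the only one of the 10 genes whose summit number was highest in a list other than wild-type injured.

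Counted over the 10 genes, Spi1, Tyrobp and Laptm5 had a summit within 1 kb of the start in wild-type sham ganglia, 3 in all. After injury Itgam and Hcls1 came to these, which made 5. In Silc1-/- ganglia the genes were 2 after sham (Spi1 and Tyrobp) and 1 after injury (Spi1). Over all protein-coding genes the shares were 48.2% and 53.8% in the wild-type lists and 52.7% and 47.3% in the Silc1-/- lists. Itgam and Hcls1 had a start summit in wild-type injured and in no other list, as did 2.49% of all protein-coding genes. Hcls1 was selected with a site in wild-type injured only, so its share is not evidence. The Itgam summit was weak (2.57, percentile 13.3) and was lost at scores of at least 5 and at equal list lengths. The Silc1-/- sham list had summits at the starts of fewer of the 10 genes than either wild-type list (2 against 3 and 5). At scores of at least 10 it had 1, wild-type sham 0 and wild-type injured 2. The reason was not tested.

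**Figure D1:**
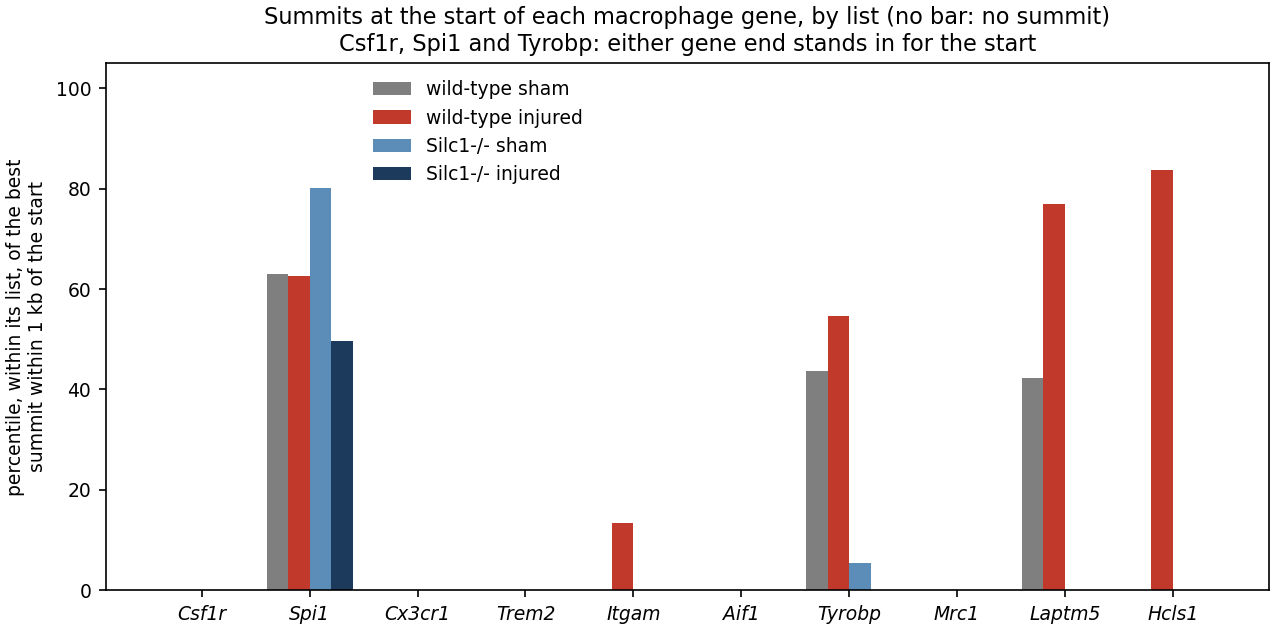
Bars give the percentile, within its own list, of the best-scoring summit within 1 kb of each gene's start, for the 4 lists; a missing bar means no summit, and for Csf1r, Spi1 and Tyrobp either gene end stands in for the start. Hcls1 and Itgam have a wild-type injured bar alone (83.7 and 13.3), Laptm5 has bars in both wild-type lists, and Spi1 is the only gene with a bar in all 4.

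The number of summits around the genes was highest in wild-type injured ganglia for 9 of the 10 genes, against 26.1% of all protein-coding genes, and for 7 of 10 after scaling to list length, against 22.3%. Since the genes were chosen with these counts known, this share is not evidence by itself. Numbers of summits are given here with wild type first, then Silc1-/-, and sham before injured. Aif1, in a gene-dense stretch of the major histocompatibility complex, had 8, 10, 7 and 7. Spi1 had 4, 9, 8 and 6. Itgam had 4, 9, 2 and 3, the widest gap between wild-type injured and either Silc1-/- list. Cx3cr1 had 3, 8, 4 and 7, so both injured lists stood above both sham lists. Tyrobp had 4, 8, 6 and 4. Laptm5 had 3, 7, 5 and 5. Trem2 had 1, 6, 2 and 3, again with both injured lists above both sham lists. Mrc1 had 3, 4, 7 and 2, with Silc1-/- sham highest. Csf1r had 1, 3, 2 and 1, and Hcls1 1, 4, 1 and 1.

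**Figure D2:**
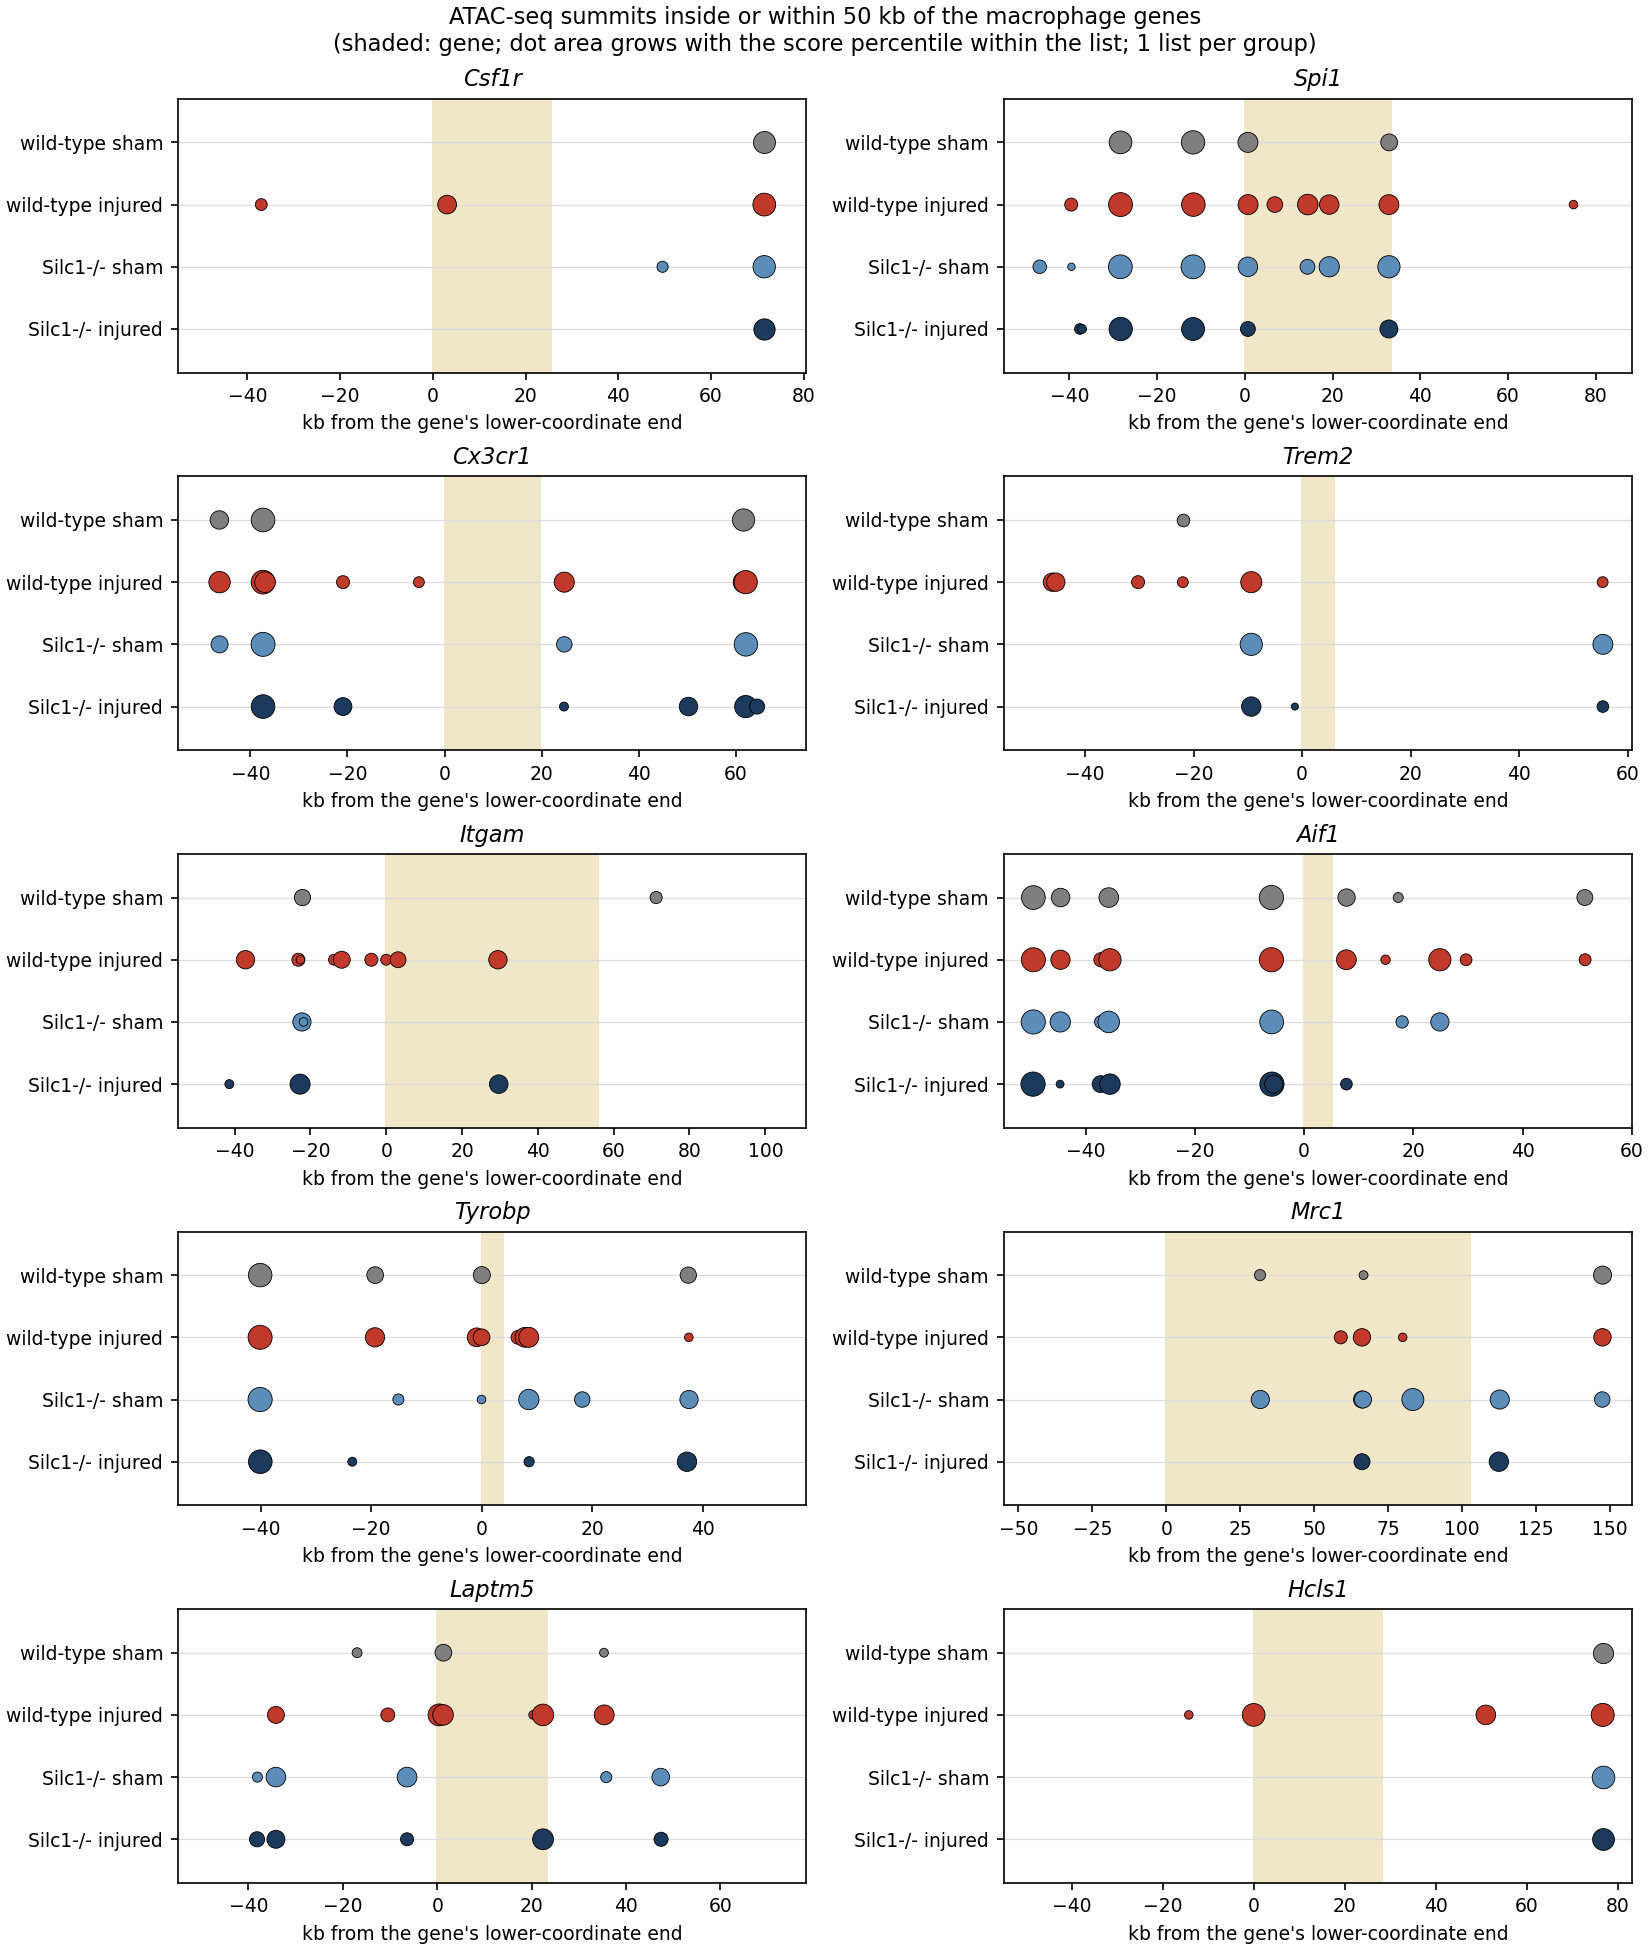
Each panel places the summits of the 4 lists along 1 gene, in kb from its lower-coordinate end, with the gene shaded and the dot area growing with the score percentile within the list. Summits in the body or at the ends of Csf1r, Hcls1 and Laptm5 are mostly in the wild-type injured row, whereas large dots in the flanks of Aif1, Cx3cr1, Tyrobp and Spi1 stand in all 4 rows.

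Summed over the genes, there were 32 summits after sham and 68 after injury in wild type, and 44 and 39 in Silc1-/-. Per 10000 summits of the list these are 11.7 (95% Wilson interval 8.31 to 16.6), 15.5 (12.2 to 19.7), 9.10 (6.78 to 12.2) and 10.9 (7.97 to 14.9). The intervals cover counting error only. After scaling to list length, wild-type injured held 1.32 times as many as wild-type sham (exact binomial interval 0.857 to 2.08) and Silc1-/- injured 1.20 times as many as Silc1-/- sham (0.757 to 1.88). Silc1-/- held 0.776 times as many as wild type after sham (0.481 to 1.26) and 0.702 times after injury (0.461 to 1.06). Each of these intervals includes 1, so none of the 4 differences is larger than counting error alone. Within 10 kb of the genes the wild-type injury ratio was larger, 1.17 on the log2 scale against 0.40, from 29 and 8 summits. The 29 include sites of Laptm5 and Hcls1 of the kind on which the genes were selected. The 10 kb value over all protein-coding genes was not computed. The ratio for injury in Silc1-/- turned to -0.33 among scores of at least 10. That of Silc1-/- against wild type after sham turned to 0.32 among those scores. The contrasts share lists and are not separate observations.

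Gene by gene, the log2 ratio of scaled summit numbers, with 1 added to each, had a median of 0.44 over the 10 genes for injury in wild type, 0.28 for injury in Silc1-/-, -0.14 for Silc1-/- against wild type after sham and -0.55 after injury. Over all protein-coding genes these medians were 0, 0, -0.07 and 0. Of those genes 1810 had no summit in the window, and over the rest the medians were -0.07, 0.02, -0.17 and -0.02. The -0.14 after sham thus lay below the first background and above the second. A ratio of at least 2-fold was reached by Trem2 for injury in wild type (1.38, where 5.40% of all genes were at least 2-fold higher and 3.54% lower). For injury in Silc1-/- it was reached by Cx3cr1, which was higher (1.03; background 4.74%), and by Mrc1, which was lower (-1.06; 4.92%). After sham, Itgam was lower in Silc1-/- than in wild type (-1.36; 5.61%, with 6.81% higher). After injury, Itgam (-1.08) and Hcls1 (-1.12) were lower in Silc1-/- than in wild type, where 5.51% of all genes were lower and 4.84% higher. Each rests on few summits, and the added 1 pulls such ratios towards 0. The ratios count all summits of a window. Of the 10 loci around Cx3cr1, 9 were nearest to another gene, and the remaining 1 was in wild-type injured only. Another gene was nearest to 5 of 7 loci around Trem2 and 3 of 4 around Hcls1. For Itgam it was 3 of 14 and for Mrc1 1 of 9.

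The 98 loci were then sorted by the lists that held them. Wild-type injured ganglia alone held 29, or 29.6% (Wilson interval 21.5 to 39.3), against 16.0% of all loci, and Silc1-/- sham ganglia alone 9, or 9.18% (4.91 to 16.5), against 21.1%. With all lists cut to the length of the shortest, the 29 became 14 of 69 loci. The share over all loci at that length was not computed, so the comparison with 16.0% holds for lists of unequal length only. A site of wild-type injured alone at Hcls1 was also among those used to select the genes. Each of the 10 genes had a locus of wild-type injured alone, as did 56.9% of all protein-coding genes and 62.0% of those with any summit. A locus of both injured lists only was found at Laptm5, Cx3cr1 and Aif1, that is 3 loci, or 3.06% (1.05 to 8.62) against 2.72%, and 14.4% of all genes (15.7% of those with any summit) had such a locus. The site at Laptm5 was among those used to select the genes, so neither the share of loci nor that of genes is evidence. A locus of both sham lists only was found 4 times, at Mrc1 (2), Itgam and Aif1, or 4.08% (Wilson interval 1.60 to 10.0) against 1.51%, and 9.10% of all genes (9.92% of those with any summit) had such a locus. Of the 4, only that at 14261188 in Mrc1 remained with joining within 500 bp. At Aif1 both kinds lay in the same gene, Bag6. The sham sites were at 35135224 (wild type, 8.22) and 35135216 (Silc1-/-, 9.0), and the injured sites at 35135448 (wild type, 16.6) and 35135450 (Silc1-/-, 7.09), only 224 to 234 bp away, and at 500 bp they were no longer separate. Loci in all 4 lists numbered 11, or 11.2% (6.38 to 19.0), against 18.3%.

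**Figure D3:**
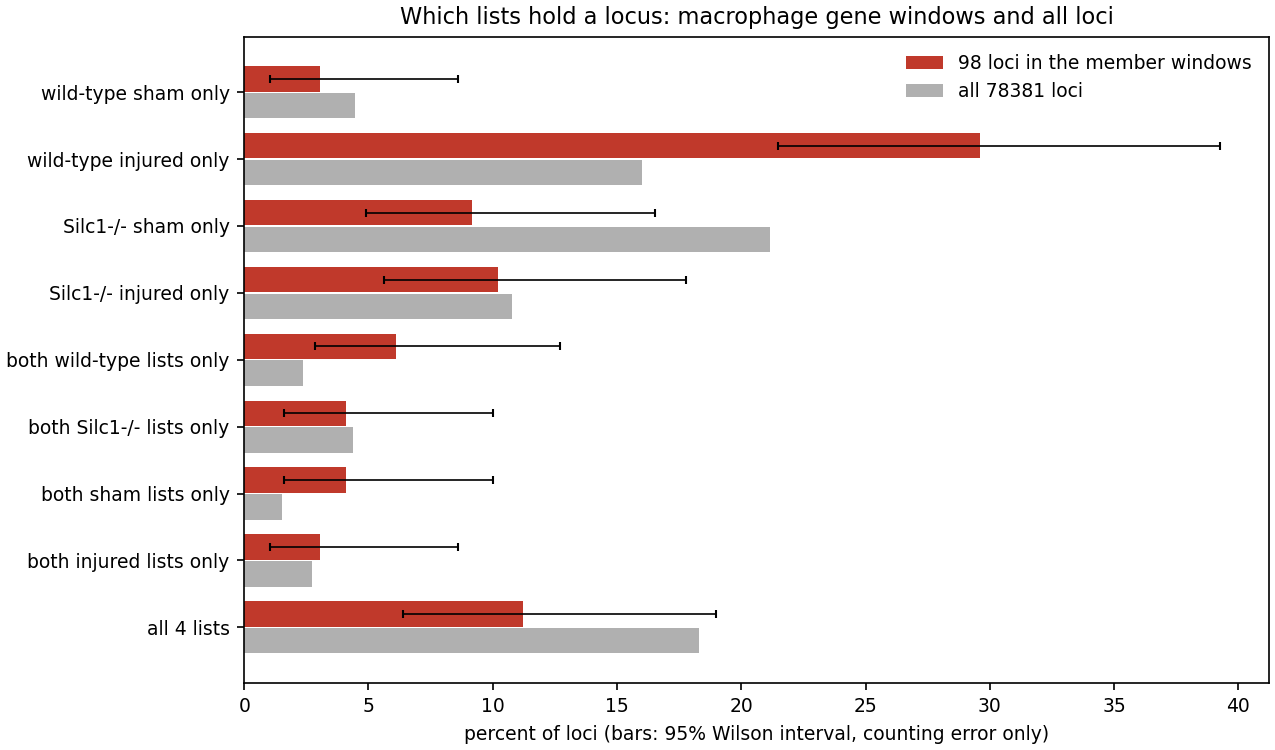
Bars give the percent of loci in 9 of the 15 possible list combinations, for the 98 loci around the macrophage genes (red, with 95% Wilson intervals) and for all 78381 loci (grey). The red bar is above the grey one for wild-type injured only (29.6% against 16.0%) and below it for Silc1-/- sham only (9.18% against 21.1%). The lists are at their full, unequal lengths.

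Loci of wild-type injured ganglia alone were mostly weak sites. The 29 around the macrophage genes scored from 1.99 to 20.8 with a median of 3.42, against a median of 3.62 over all 12545 loci of that kind. Those scoring at least 10 were 2, the starts of Hcls1 and Laptm5, or 6.90%, against 4.08%. Hcls1 was selected with a site in wild-type injured only, so this share is not evidence. A summit of another list stood within 1 kb of 5 of the 29, or 17.2%, against 26.9% of all, and 13, or 44.8%, had none within 10 kb, against 37.9%.

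Much of what lies within 50 kb of these genes belongs to their neighbours. Of the 98 loci, 35 had the macrophage gene as their nearest protein-coding or long noncoding RNA gene and 63 another gene, of which 41 lay inside that other gene. Of the 11 loci in all 4 lists, only 2 were nearest to the macrophage gene, both at the ends of Spi1. Within the wild-type injured list the 2 highest scores of the set, 53.4 at Prrc2a and 46.1 at Csnk2b, were both in the window of Aif1. Among the 35 loci nearest to the macrophage genes, 26 were in wild-type injured and 10 in wild-type sham, and 14 and 10 in Silc1-/- sham and injured. Of these 35, 14 were in wild-type injured alone, or 40.0%, a larger part than of all 98. Itgam, the gene with the most loci of that kind, was nearest to 11 of the 35, and the 14 include the starts of Hcls1 and Laptm5. Hcls1 was selected with a site of that kind. The share of that kind among all loci nearest to a gene was not computed. Restricted to the 35 loci, the scaled log2 ratio between the injured lists, Silc1-/- over wild type, was -1.09, against -0.51 with all summits of the windows.

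Sharing within 200 bp was compared with that of each whole list. Of the 32 summits of wild-type sham, 75.0% were shared with wild-type injured (Wilson interval 57.9 to 86.7; 72.9% over the whole list) and 62.5% with Silc1-/- sham (45.3 to 77.1; 68.9%). With Silc1-/- injured it was 40.6% (25.5 to 57.7), against 63.2%. Of the 68 summits of wild-type injured, 35.3% were shared with wild-type sham (25.0 to 47.2; 45.4%), 39.7% with Silc1-/- sham (28.9 to 51.6; 57.1%) and 36.8% with Silc1-/- injured (26.3 to 48.6; 48.1%). Of the 44 summits of Silc1-/- sham, 43.2% (29.7 to 57.8; 38.9%) and 61.4% (46.6 to 74.3; 51.9%) were shared with the sham and injured lists of wild type, and 52.3% (37.9 to 66.2; 45.7%) with Silc1-/- injured. Of the 39 Silc1-/- injured summits, 64.1% were shared with wild-type injured (48.4 to 77.3; 59.0%), 59.0% with Silc1-/- sham (43.4 to 72.9; 61.5%) and 33.3% with wild-type sham (20.6 to 49.0; 48.1%). The whole-list share lay outside the interval for wild-type sham summits shared with Silc1-/- injured and for wild-type injured summits shared with Silc1-/- sham, and inside it for the other pairs. This is not a test. The intervals treat neighbouring summits of the same gene as separate draws, and the pairs share lists. The genes were also selected partly on sites that the sham lists lack.

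A further 35 macrophage genes were examined, among them complement, scavenger receptor and transcription factor genes. In the same order of lists they had 130, 218, 188 and 132 distinct summits, and the scaled ratio of wild-type injured to sham was 1.04 (0.836 to 1.31). For injury, 5 were at least 2-fold higher and 1 lower in wild type, where 5.40% and 3.54% of all genes were. In Silc1-/- 1 was higher and 7 lower, against 4.74% and 4.92% of all genes, and the 7 include C1qa, C1qb and C1qc, which share summits. Among those higher in wild type were Adgre1, a surface receptor of macrophages (1.87 on the log2 scale), and Cd163, a haemoglobin scavenger receptor (2.18), both named after their values were seen. These 2 rest on 0 summits after sham and on 3 and 4 after injury. The gene that was lower in wild type was Runx1 (-1.01), with 12 summits after sham and 9 after injury. No gene was past 2-fold in the same direction in both genotypes. Between injured lists, 0 were higher in Silc1-/- and 6 lower, against 4.84% and 5.51% of all genes, and the scaled ratio was 0.741 (0.593 to 0.924). Start summits were in 13, 16, 12 and 10 of the 35, against 48.2%, 53.8%, 52.7% and 47.3% of all genes, and 18 had none in any list, against 41.9%. The starts of the myeloid transcription factor genes Irf8, Cebpa, Cebpb and Runx1 had a summit in all 4 lists. Start summits in wild-type injured alone were at Itgb2, which encodes the beta chain that pairs with the product of Itgam, Ptpn6, a phosphatase of blood cells, and Lyve1, a hyaluronan receptor. These 3 were singled out after their values were seen.

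Loci of both injured lists only lay within 50 kb of 7 of these 35 genes, against 14.4% of all genes. They included sites 1186 bp beyond an end of Itgb2, at 77566894 on chromosome 10 (higher score of its pair of summits 7.44), near Mpeg1, a pore-forming protein of macrophages (12501300 on chromosome 19, 6.25), and near Irf8 (120691701 on chromosome 8, 5.80). The others, at Fcgr1, Fcer1g, Cd163 and Lcp1, scored 2.57 to 3.73, and the one at Lcp1, an actin-bundling protein of leukocytes, lay 352 bp outside the gene. Only the sites at Itgb2 and Lcp1 were within 2 kb of the gene in question. The C1q genes are 3 neighbours on chromosome 4 that share summits. C1qa, C1qb and C1qc had 3, 4 and 4 summits in Silc1-/- sham, C1qb had 2 in wild-type injured, and there were 0 otherwise. C1qb was thus also among the genes at least 2-fold higher for injury in wild type (1.47 on the log2 scale). Of the ligands of these receptors, Csf1 had 3, 5, 4 and 2 summits, Il34 3, 3, 7 and 4, and Cx3cl1, the neuronal fractalkine gene, 2, 3, 4 and 2. None of the 3 was past 2-fold for injury, and Csf1 and Cx3cl1 had a start summit in every list.

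Markers of other cells were counted in the same way. The 12 neutrophil genes had 33, 77, 53 and 35 distinct summits, a scaled ratio of 1.45 for injury in wild type (0.954 to 2.25) and of 0.556 between Silc1-/- and wild type after injury (0.362 to 0.840). Their start summits numbered 2, 5, 2 and 2 of 12; S100a8 had one in all 4 lists, Retnlg and Csf3r in wild-type injured alone, and Mpo, Elane, Ly6g, Cxcr2, Mmp9, Ngp and Ltf in none. Per 10000 summits of the list, neutrophil genes were thus, like the macrophage genes, densest in wild-type injured (17.6). So were the 35 other macrophage genes (49.7), the endothelial genes (10.5) and the skeletal muscle genes (8.67). Glia, T and B cell, sensory neuron and housekeeping genes were densest in another list. The part of neutrophils in the macrophage values was not tested. The 12 T and B cell genes had 38, 48, 47 and 35 distinct summits, and 0 of 12 had a start summit in any list. For Schwann cell and satellite glia genes the summits were 72, 107, 109 and 78, with a ratio of 0.925 for injury in wild type (0.680 to 1.26), and for endothelial genes 28, 46, 48 and 31, with a ratio of 1.02 (0.626 to 1.70). The sensory neuron genes, which mark the labelled tissue, had 47, 76, 125 and 60, with start summits at 8, 8, 13 and 8 of 20. Their scaled ratio of Silc1-/- to wild type after sham was 1.5 (1.07 to 2.15), above 1 where that of the macrophage genes was below it, and for injury in Silc1-/- it was 0.648 (0.468 to 0.888). Skeletal muscle genes, of a tissue outside the ganglion, had 22, 38, 33 and 30. The 25 housekeeping genes had 131, 195, 177 and 136. Their scaled ratio of Silc1-/- to wild type was 0.763 after sham (0.605 to 0.963) and 0.854 after injury (0.681 to 1.07), beside 0.776 and 0.702 for the macrophage genes. A ratio below 1 after sham was thus measured at genes used by every cell as well. It was also measured at the other macrophage (0.816), neutrophil (0.906), glia (0.854) and T and B cell genes (0.698). Endothelial (0.968) and skeletal muscle genes (0.847) were below 1 too. The intervals of these further lists include 1. The 3 ligand genes stood at 1.06 (0.421 to 2.88).

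**Figure D4:**
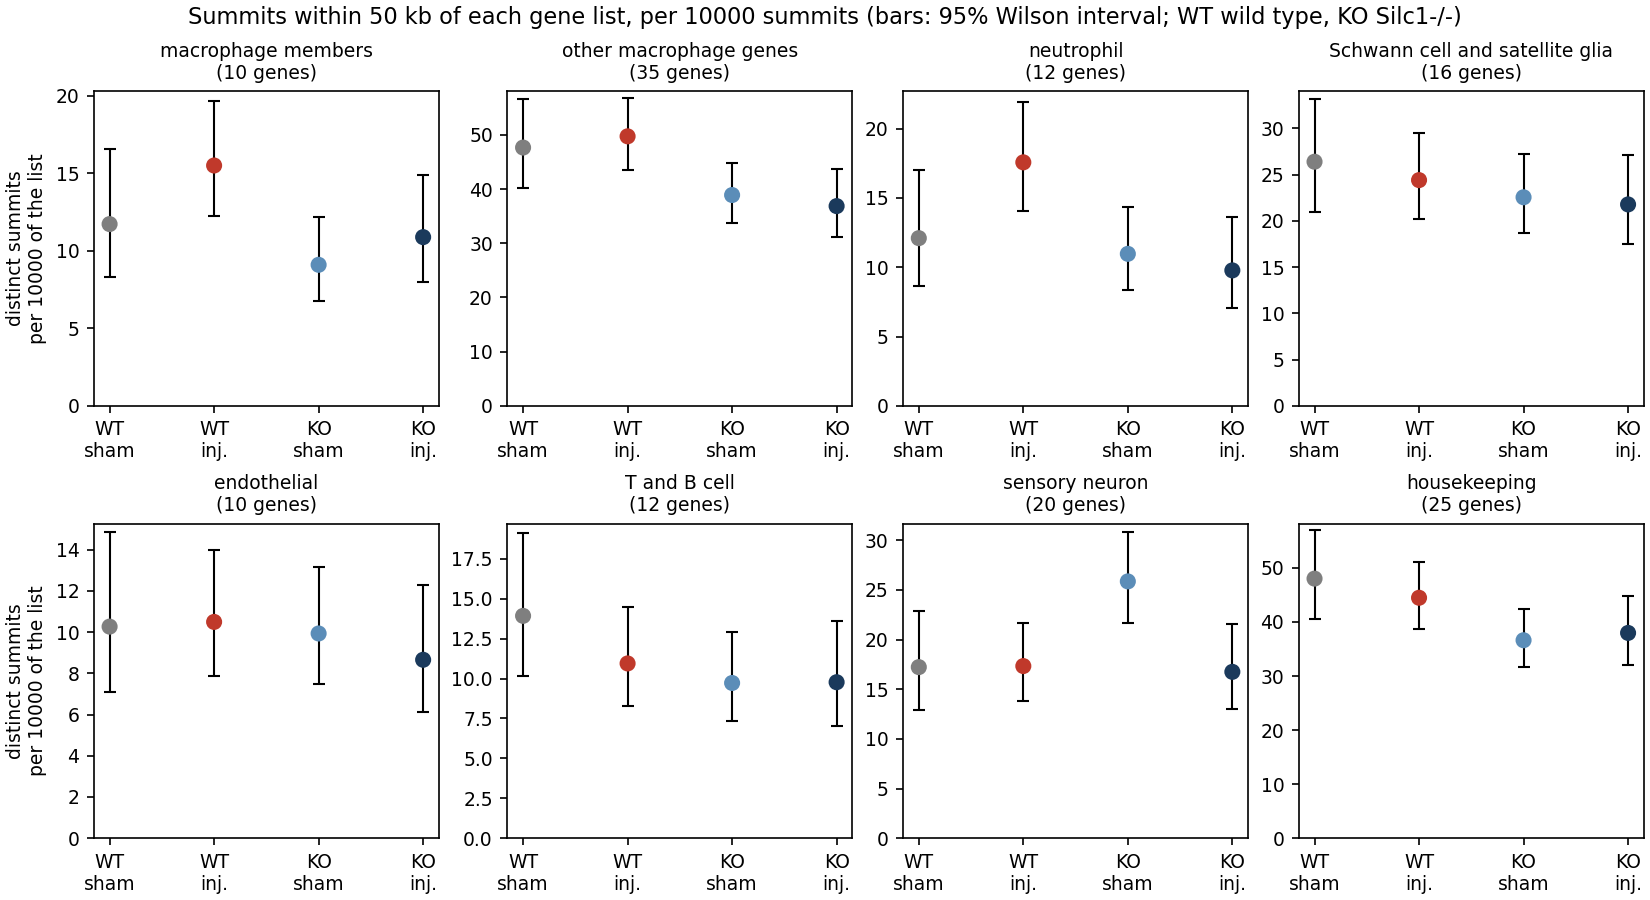
Points give the distinct summits inside or within 50 kb of the genes of each list, per 10000 summits of the summit list, with 95% Wilson intervals; each panel is 1 gene list and has its own scale starting at 0. The 10 macrophage genes are highest in wild-type injured (15.5), as are the 12 neutrophil genes (17.6). The 35 other macrophage genes (49.7) and the endothelial genes (10.5) are highest there too, and the remaining panels peak in another list. The intervals of the 10 macrophage genes overlap except those of wild-type injured and Silc1-/- sham, whose bounds meet at 12.2.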

How the data were processed

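ATAC-seq was done on 12 libraries, and 4 summit lists, 1 per group, were used. The submitters' processing notes name Bowtie2, MACS2 and mm10. Versions, read filters, any transposase shift and the way the 3 libraries of a group were combined were not given in the sources read for this work. The authors deposited each summit with a score on a −log10 scale, without stating whether of p or q; the lowest was 1.30. Scores and list lengths grow with depth, which is unknown.

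Lists were assigned by their peak names, which match the sample descriptions. Summits (1-based) within 200 bp were joined, and numbers within 50 kb of a gene, after scaling by mean list length, were set against each other as log2 ratios after adding a pseudocount of 1. A difference of at least 2-fold was counted as a call. Starts came from the RefSeq promoter table for 17492 protein-coding genes and from either gene end for 4395. All list symbols matched. With 1 list per group there was no test; intervals are 95% Wilson or exact (Clopper-Pearson) binomial. The joining of summits to loci and the counting of summits within 50 kb were checked on simulated data, and the other steps were not.

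The genes and lists were chosen with earlier results of these data known. The naming rule took, for each gene, its best-scoring locus, loci within 1 kb of the start and loci of both injured or both sham lists only, all loci of Laptm5 and Hcls1, and other macrophage genes past 2-fold in the same direction in both genotypes or with a locus of both injured lists only. Other loci were named after their values were seen. Alternatives were windows of 10 and 100 kb, minimum scores of 5 and 10, lists cut to 27279 summits, nearest-gene assignment, joining within 50, 500 and 1000 bp, start distances of 500 and 2500 bp, and a pseudocount of 0.5. Python 3.11.15, numpy 2.4.6, pandas 2.3.3, scipy 1.17.1 and matplotlib 3.10.9 were used.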

Additional observations from a re-analysis of the deposited data

How the results depend on the processing

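Of 66 alternative values, 46 stayed within the counting interval or within 1.5 times of the reported value, and 20 moved. Within 10 kb the log2 ratio of wild-type injured to sham was 1.17 (0.01 to 2.51), against 0.40. That interval covers counting error only, and the summits counted include sites of the kind on which the genes were selected. The other ratios stayed inside their intervals. That of injury in Silc1-/- nevertheless changed sign at scores of at least 10, at equal list lengths and by nearest gene (-0.33, -0.05 and -0.05), and that of Silc1-/- against wild type after sham within 10 kb and at scores of at least 10 (0.08 and 0.32). Between the injured lists it was negative in all settings tried, and only within 100 kb did its interval exclude 0 (-0.47, -0.92 to -0.02). Loci of both injured lists only numbered 1 within 10 kb, 5 within 100 kb, 0 at scores of at least 10 and 1 by nearest gene. Loci of wild-type injured alone numbered 16 within 10 kb, 16 and 6 at scores of at least 5 and 10, 14 at equal list lengths and 14 by nearest gene; stricter scores and shorter lists leave fewer loci. At scores of at least 10, start summits were left at 0 genes after sham and 2 after injury in wild type (Laptm5 and Hcls1), and at 1 and 0 in Silc1-/-. In Silc1-/- sham it was 1 gene at scores of at least 5, at equal list lengths and within 500 bp. In Silc1-/- injured it was 0 at scores of at least 5 and within 500 bp, and 2 within 2500 bp, where Trem2 was added. The cause was not tested. No paired analysis was possible because each group has 1 list that carries no replicate number, and no replicate could be left out.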
